A study of Mus musculus with 20 samples.

Results

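The 10 genes described here encode transcription factors of the trophectoderm, the outer epithelium of the blastocyst, and of the trophoblast that grows from it. They are Cdx2, Tead4, Gata2, Gata3, Tfap2a, Tfap2c, Eomes, Elf5, Hand1 and Esx1, and they were chosen by name for their roles in the lineage, with earlier results of these data known. All 10 were found among the 25208 genes of the count table. Of these, 9 were among the 16603 genes that passed the filter on low counts and were tested, and Elf5 did not pass it. Mouse zygotes were cultured in KSOM medium and RNA of the embryos was sequenced with the Smart-seq2 protocol at 4 stages, namely the late 2-cell and 4-cell stages and the early and late parts of the 8-cell stage. At each stage 1 group was control, of genotype WT, and 1 group had received P300 siRNA, of genotype P300 knockdown. At the late 8-cell stage 2 further groups carried the genotypes P300 knockdown I1394G rescue and P300 knockdown NaCr rescue, so the knockdown is common to 3 of the 4 groups there. The labels do not spell out I1394G or NaCr, and they are taken here to mean a p300 point mutant and sodium crotonate. Each of the 10 groups held 2 libraries. The labels give neither the strain nor the number of embryos per library, and they do not say whether the 2 libraries came from separate cultures, so the p-values measure only the spread between these libraries.

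As background, the trophectoderm arises from outer cells, in which the Hippo kinases are inactive, YAP1 and its relative WWTR1 enter the nucleus, and both act there through the DNA-binding protein TEAD4. TEAD4 and Notch signalling activate Cdx2, the homeobox gene that holds the trophectoderm apart from the inner cell mass, while Gata3 is a parallel target of TEAD4 and TFAP2C acts on genes of both the Hippo and the polarity machinery. Eomes and Elf5 act later, in trophoblast stem cells, Hand1 in trophoblast giant cells, Gata2 in giant cells beside Gata3, and Esx1, an X-linked homeobox gene, in the labyrinth of the placenta. p300, the product of Ep300, is a transcriptional coactivator that adds acetyl and other acyl groups, crotonyl among them, to histones.

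Ep300 itself was checked first. Its normalised counts (CPM, counts scaled to a common library size with TMM) were 86.1 and 83.8 in late 2-cell controls against 22.6 and 29.9 with siRNA, 48.3 and 88.4 against 11.4 and 19.1 at the 4-cell stage, and 41.5 and 82.9 against 11.7 and 16.4 at the early 8-cell stage. In late 8-cell embryos it stood at 22.0 and 15.2 in controls and at 16.2 and 13.2 in the libraries labelled P300 siRNA, so the target did not part these libraries there (log2 fold change -0.36 ± 0.37 SE, adjusted p = 0.50). It read 14.8 and 16.2 with I1394G and 11.6 and 12.6 with NaCr. Library totals ran from 3202332 to 24785201 counts, and the shallowest was replicate 1 of the late 8-cell siRNA group. Summed CPM of 11 cumulus and granulosa cell markers, of the cells that surround the egg, was 9.82 to 16.9 in that group against 1.39 to 1.43 in late 8-cell controls, 5.50 to 6.53 with I1394G and 4.23 to 7.20 with NaCr. Of these 11 genes, 9 had counts in the siRNA group, with Fshr and Cyp19a1 at 0, and 3 had counts in controls. At the early 8-cell stage the same sum was 0.957 to 2.18 with siRNA and 1.77 to 3.86 in controls. It was 11.4 to 11.6 with siRNA and 13.7 to 13.8 in controls at the late 2-cell stage. Among the late 8-cell groups the sum was highest with siRNA, and the source of these counts was not tested. The 5 trophectoderm markers Cdx2, Gata3, Tfap2c, Krt8 and Krt18 all had counts in controls of every stage, and their sum was 94.2 to 101 CPM at the late 2-cell stage and 596 to 674 CPM at the late 8-cell stage.

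Promoter sequences are shown for Cdx2 and Gata3, which fell at both 8-cell stages, and for Gata2 and Esx1, which stood higher there. They are the 250 bases before the annotated start, from RefSeq on GRCm38.p6, read along the gene's strand. Capitals mark matches on either strand to GCCNNNGGC, the AP-2 site that TFAP2 proteins bind, or to GGAATG, the core of the TEAD site. The motif AGATAA of GATA factors and the motif TTTATG of CDX factors were searched in the same way, and no matches overlapped in the sequences shown.
Cdx2, chr5:147307250-147307499, minus strand: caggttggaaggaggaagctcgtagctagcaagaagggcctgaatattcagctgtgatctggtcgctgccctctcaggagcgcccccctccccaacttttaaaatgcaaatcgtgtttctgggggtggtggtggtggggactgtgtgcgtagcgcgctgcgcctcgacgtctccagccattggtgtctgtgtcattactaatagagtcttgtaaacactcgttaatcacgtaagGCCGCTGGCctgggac
Gata3, chr2:9878601-9878850, minus strand: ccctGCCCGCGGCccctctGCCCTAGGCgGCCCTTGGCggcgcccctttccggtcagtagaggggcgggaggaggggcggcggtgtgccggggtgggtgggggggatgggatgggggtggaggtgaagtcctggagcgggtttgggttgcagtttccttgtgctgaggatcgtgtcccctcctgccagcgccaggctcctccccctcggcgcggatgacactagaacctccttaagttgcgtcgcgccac
Gata2, chr6:88198414-88198663, plus strand: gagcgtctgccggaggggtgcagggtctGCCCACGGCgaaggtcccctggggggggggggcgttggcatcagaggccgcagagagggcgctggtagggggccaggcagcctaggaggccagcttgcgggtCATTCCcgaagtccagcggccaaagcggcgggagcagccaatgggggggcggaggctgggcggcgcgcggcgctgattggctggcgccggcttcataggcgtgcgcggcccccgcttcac
Esx1, chrX:137120327-137120576, minus strand: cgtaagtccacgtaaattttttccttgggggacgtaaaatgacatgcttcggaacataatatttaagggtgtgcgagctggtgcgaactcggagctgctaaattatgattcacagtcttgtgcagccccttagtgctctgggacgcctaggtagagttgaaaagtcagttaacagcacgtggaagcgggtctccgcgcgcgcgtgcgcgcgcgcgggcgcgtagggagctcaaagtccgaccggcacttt
The Cdx2 window held 1 AP-2 match, 16 bases before the start, and the Gata3 window held 3, at 246, 231 and 221 bases. This Gata2 window, 1 of 2 for the gene, held 1 AP-2 match at 222 bases and 1 TEAD match at 120 bases, as CATTCC on the other strand, while its other window and the Esx1 window held no match to any of the 4 motifs. Among 32851 promoter windows of this length, 13.7% held the AP-2 motif, 12.6% the TEAD motif, 9.99% the GATA motif and 10.8% the CDX motif. Of the 10 genes 7 were found in the promoter table, and Tead4, Tfap2c and Hand1 were not.

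In control embryos the factors differed in when they were highest. By length-corrected level (FPKM, fragments scaled by transcript length and depth, mean of 2 libraries), the order in late 8-cell controls was Tfap2c at 36.7, Tead4 at 30.4, Gata3 at 21.9, Hand1 at 19.6, Cdx2 at 5.90, Eomes at 1.11 and Esx1 at 0.450. Tfap2a stood at 0.0850 and Gata2 and Elf5 both at 0.0200. At the late 2-cell stage the highest was already Tfap2c, at 28.2 FPKM, followed by Tead4 at 6.60, Gata3 at 4.94 and Esx1 at 3.94, while Cdx2 stood at 0.135 and Elf5 at 0. All fold changes below come from counts, since the deposited FPKM column of control early 8-cell replicate 2 correlated with its own counts at 0.904 after length correction, against 0.992 to 0.999 in the other libraries.

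From the late 2-cell to the 4-cell stage 3 of the 9 tested factors rose and 3 fell, where 61.2% of all genes tested were called (27.0% higher and 34.2% lower). Tead4 read 16.1 and 18.2 CPM at the late 2-cell stage and 127 and 104 CPM at the 4-cell stage. Hand1 read 2.79 and 3.13 and then 71.4 and 40.2. Tfap2c read 67.0 and 78.9 and then 114 and 142. In all 3 the libraries of the stages did not overlap, and the rises on the log2 scale were 2.76 ± 0.29 for Tead4 (adjusted p = 2.1e-07), 4.23 ± 0.38 for Hand1 (adjusted p = 2.9e-08) and 0.81 ± 0.22 for Tfap2c (adjusted p = 0.00396), beside a median of -0.40 over all genes. Eomes went the other way, from 1.84 and 2.40 CPM to 0.103 and 0.0916 CPM, which were 3 counts in all (ratio 0.0460, counting interval 0.00916 to 0.143, adjusted p = 0.000592). Gata2 and Tfap2a, at 0.955 to 2.92 CPM in late 2-cell controls, also fell, to 0.504 CPM or less, with adjusted p = 0.0310 and 0.0155. Gata2 lost its call without control late 2-cell replicate 2 (adjusted p = 0.250) or control 4-cell replicate 1 (0.124), and Tfap2a without control late 2-cell replicate 1 (0.0700) or control 4-cell replicate 2 (0.107). The Tfap2c rise lost its call with limma on log2 FPKM at pseudocounts of 1 and 0.1 (adjusted p = 0.135 and 0.186). Its log2 values there were 0.39 and 0.40. Limma without the FPKM column of control early 8-cell replicate 2 did not call it either (0.0960).

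Between the 4-cell and early 8-cell controls 1.13% of all genes were called (0.620% higher and 0.506% lower), and Hand1 and Eomes were the called factors, both higher. Hand1 reached 165 and 162 CPM, a rise of 1.55 ± 0.32 (adjusted p = 0.0182), and Eomes returned to 2.17 and 1.61 CPM, 19.7-fold its 4-cell level (counting interval 6.28 to 99.6, adjusted p = 0.0311). Both calls went without control 4-cell replicate 2 (adjusted p = 0.196 and 0.231) or without either early 8-cell control, where adjusted p lay between 0.0535 and 0.0746. Cdx2 counts were first clear at this stage, with 1.97 and 1.61 CPM against 0 and 0.321 CPM in the 4-cell controls (adjusted p = 0.244, or 0.0436 with no filter on low counts).

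From the early to the late 8-cell stage 26.2% of all genes were called (15.0% higher and 11.2% lower), and of the factors 1 rose and 3 fell. Cdx2 rose to 15.7 and 13.9 CPM, by 3.04 ± 1.0 on the log2 scale (adjusted p = 0.0323). Gata3 moved from 24.3 and 25.9 to 81.3 and 83.1 CPM, groups that did not overlap, by 1.71 ± 0.66 (adjusted p = 0.0637). This Gata3 step was called with no filter (adjusted p = 0.000192) and with the compared libraries alone (0.00259). It was also called with limma on log2 FPKM (0.00728 and 0.0316). Those limma fits used the FPKM column of control early 8-cell replicate 2 that does not follow its counts. Gata3 read 0.59 FPKM in that column and 6.54 FPKM in replicate 1, so the limma calls are not read. Hand1 fell to 47.7 and 39.1 CPM (-1.91 ± 0.32, adjusted p = 0.000381), Esx1 from 9.15 and 2.69 to 1.13 and 0.552 CPM (-2.79 ± 0.59, adjusted p = 0.00216), and Tead4 from 155 and 216 to 122 and 96.7 CPM (-0.76 ± 0.27, adjusted p = 0.0438). Hand1 thus peaked at the early 8-cell stage while Cdx2 and Gata3 were highest at the late 8-cell stage. The Cdx2 call was lost without any 1 of the 4 libraries (adjusted p 0.0976 to 0.146), the Tead4 call without control early 8-cell replicate 2 (0.311), control late 8-cell replicate 1 (0.0758) or replicate 2 (0.276), and the Esx1 call without control early 8-cell replicate 1 (0.0650).

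**Figure D1:**
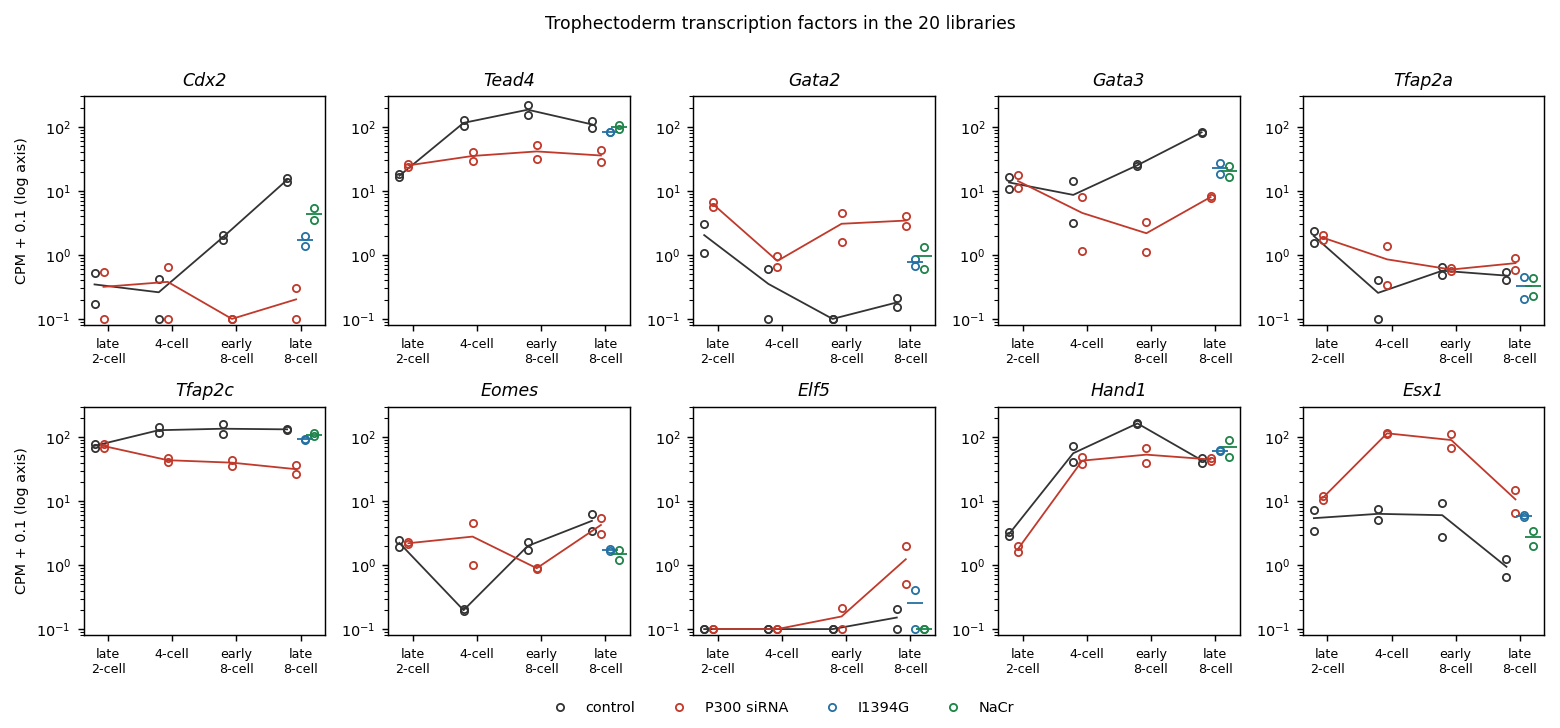
Each panel plots 1 factor in all 20 libraries as CPM plus 0.1 on a log axis against stage, with open circles for libraries, lines through the means of control (black) and P300 siRNA (red), and short bars for the means of I1394G (blue) and NaCr (green). With siRNA, Tead4 and Tfap2c lie below both controls from the 4-cell stage on, and Cdx2 and Gata3 at the 8-cell stages. Tead4 lies above both controls at the late 2-cell stage, and Esx1 at all 4 stages.

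With P300 siRNA, 4 of the 9 tested factors were called at the 4-cell stage, 7 at the early 8-cell stage and 6 at the late 8-cell stage. Tead4, Tfap2c, Gata3, Cdx2 and Hand1 were the factors called lower at 1 or more stages, and Esx1, Gata2 and Eomes those called higher. The calls were 2 higher and 2 lower at the 4-cell stage, where 15.0% of all genes were called (7.77% higher and 7.25% lower). They were 2 higher and 5 lower at the early 8-cell stage, beside 16.5% of all genes (8.21% higher and 8.30% lower), and 2 higher and 4 lower at the late 8-cell stage, beside 28.0% (13.6% higher and 14.3% lower). The median log2 fold change of the 9 was 0.07, -1.62 and -0.18 at these stages, against 0.00, 0.04 and 0.06 over all genes tested. At the late 2-cell stage none of the 9 was called by edgeR's quasi-likelihood test, none had an unadjusted p under 0.05, and DESeq2 and limma called 0, where 0.00602% of all genes were called. The siRNA target Ep300 was not called there by the same edgeR test either (-1.69 ± 0.37 on the log2 scale, adjusted p = 0.318). A missing call at that stage therefore does not show equal levels. With limma on log2 FPKM 1 or 2 factors were called at the early 8-cell stage, depending on the pseudocount, and 6 without the mismatched column. In whole embryos, fewer cells of a type and less RNA per cell cannot be told apart.

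Tead4 and Tfap2c, the factors that act upstream, were lower with siRNA from the 4-cell stage on. Tead4 read 41.0 and 29.1 CPM with siRNA at the 4-cell stage, 51.6 and 31.0 at the early 8-cell stage and 28.4 and 42.9 at the late 8-cell stage. Each of these values lay under both controls of its stage. The log2 fold changes were -1.73 ± 0.28 (adjusted p = 0.000733), -2.16 ± 0.28 (adjusted p = 7.3e-05) and -1.60 ± 0.28 (adjusted p = 0.000452). At the late 2-cell stage Tead4 stood at 26.4 and 23.5 CPM with siRNA, above both controls but without a call (0.54 ± 0.28, adjusted p = 1.0). With limma on log2 FPKM and pseudocounts of 1 and 0.1 the Tead4 calls were lost at the 4-cell (adjusted p = 0.0906 and 0.116), early 8-cell (0.777 and 0.802) and late 8-cell stages (0.132 and 0.168). Limma without the mismatched FPKM column of control early 8-cell replicate 2 kept the 4-cell and late 8-cell calls. At the early 8-cell stage that fit leaves 1 control library, so its call is not read. The siRNA level of Tead4 thus stayed between 28.4 and 51.6 CPM over the 3 later stages, while control Tead4 ran between 96.7 and 216 CPM.

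Tfap2c, which encodes the AP-2 gamma protein, showed a like course. At the late 2-cell stage siRNA and control libraries overlapped, at 67.6 and 77.4 against 67.0 and 78.9 CPM. With siRNA it then read 40.7 and 46.2 CPM at the 4-cell stage, 35.1 and 44.4 at the early 8-cell stage and 26.8 and 36.0 at the late 8-cell stage, while its controls held 112 to 158 CPM. It fell by 1.56 ± 0.22 (adjusted p = 0.000299), 1.77 ± 0.23 (adjusted p = 6.5e-05) and 2.05 ± 0.23 (adjusted p = 1.1e-05) on the log2 scale. Limma on log2 FPKM with pseudocounts of 1 and 0.1 lost the early 8-cell call (adjusted p = 0.0590 and 0.0907) and kept the 4-cell and late 8-cell calls of Tfap2c. The early 8-cell controls of those fits included the mismatched column. Its relative Tfap2a, AP-2 alpha, was present at 0 to 1.26 CPM at these stages and was not called at any of the 4 stages. The 4-cell calls of Tead4 and Tfap2c were lost when only the 4-cell libraries were fitted (adjusted p = 0.0683 and 0.0712).

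Cdx2 and Gata3 carried the largest fitted falls among the 9, both at the 8-cell stages. Cdx2 had no count in either siRNA library at the early 8-cell stage, against 1.97 and 1.61 CPM in controls. Set against 3 counts over the group, it was at least 12.1-fold lower, a bound for counting error only (adjusted p = 0.0150). Limma on log2 FPKM, with the mismatched column among the controls, did not call it at pseudocounts of 1 and 0.1 (adjusted p = 0.446 and 0.440). Late 8-cell siRNA libraries held 0 and 0.204 CPM, 5 counts in all, against 15.7 and 13.9 CPM in controls, which held 558 counts. The mean with siRNA was 0.690% of the control mean, and the log2 fold change was -6.44 ± 1.28 (adjusted p = 0.00159). The early 8-cell call was lost without either siRNA library (adjusted p = 0.0892 without replicate 1 and 0.0664 without replicate 2). The difference between the 8-cell stages in the siRNA effect on Cdx2 was not called by edgeR (1.16 ± 1.74, adjusted p = 0.758). Limma on log2(FPKM + 1) called it with the opposite sign, as a larger fall at the late 8-cell stage (adjusted p = 0.00393). Neither sign is read. The edgeR value rests on an early 8-cell siRNA group with 0 counts. With a pseudocount of 1 the early 8-cell fall is bounded by its controls, at 0.79 FPKM and, in the mismatched column, 0.

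Gata3 overlapped its controls at the late 2-cell stage, at 17.4 and 10.9 against 16.1 and 10.8 CPM, and at the 4-cell stage, at 7.81 and 1.04 against 14.1 and 3.02 CPM (log2 fold changes 0.06 ± 0.66 and -1.03 ± 0.71, adjusted p = 1.0 and 0.353). The 4-cell difference was called without siRNA replicate 1 (adjusted p = 0.0281). At the early 8-cell stage it read 3.13 and 1.03 CPM with siRNA against 24.3 and 25.9 in controls. Late 8-cell libraries had 8.23 and 7.60 CPM against 81.3 and 83.1. The libraries were far apart at both stages, and Gata3 fell by 3.55 ± 0.76 (adjusted p = 0.00376) and fell by 3.38 ± 0.72 (adjusted p = 0.00226) on the log2 scale. Limma on log2 FPKM with pseudocounts of 1 and 0.1 lost the early 8-cell call (adjusted p = 0.427 and 0.461). The mismatched column was among the controls of those fits, with Gata3 at 0.59 FPKM against 6.54 FPKM in control replicate 1. The late 8-cell call was lost with 0.1 (adjusted p = 0.0564) and kept with 1. Gata3 with siRNA stood at 9.63% of its late 8-cell control mean, against 0.690% for Cdx2, and the difference between these shares was not tested.

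Gata2, the other GATA factor of the list, went the opposite way. It had no count in early 8-cell controls and 4.44 and 1.49 CPM with siRNA, which is at least 21.1-fold higher (adjusted p = 0.00333). This call was lost with limma on log2(FPKM + 1) (adjusted p = 0.0805) and kept with a pseudocount of 0.1. Late 8-cell controls held 0.0513 and 0.110 CPM, 3 counts, and siRNA libraries 3.98 and 2.70 CPM, a ratio of 35.9 (counting interval 11.9 to 178, adjusted p = 0.00374). The late 8-cell call did not hold without control late 8-cell replicate 1 (adjusted p = 0.0553). In late 2-cell embryos Gata2 had 5.54 and 6.60 against 0.955 and 2.92 CPM, and at the 4-cell stage 0.558 and 0.853 against 0 and 0.504 CPM, both without a call (adjusted p = 1.0 and 0.435, and 0.0458 for the former in a fit to those libraries alone). In absolute terms Gata2 with siRNA remained low, at 1.18 FPKM in the late 8-cell group, below the 2.93 FPKM of Gata3 in the same libraries. The cumulus and granulosa markers were higher with siRNA at the late 8-cell stage as well, and their part in the Gata2 value there was not tested. At the early 8-cell stage those markers summed to 0.957 to 2.18 CPM with siRNA and 1.77 to 3.86 CPM in controls, and Gata2 averaged 2.96 CPM with siRNA. Their part in the Gata2 value was not tested at that stage either.

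Eomes and Elf5, factors of the trophoblast stem cell state, were scarce. Eomes read 4.46 and 0.914 CPM with siRNA at the 4-cell stage against 3 counts in the controls, a ratio of 20.9 (counting interval 6.74 to 105, adjusted p = 0.00350), and that call was lost in a fit to the 4-cell libraries alone (adjusted p = 0.151). Limma on log2(FPKM + 1) lost the call too (log2 0.71, adjusted p = 0.0997, and 0.0698 without the mismatched column). With a pseudocount of 0.1 limma kept it. The level with siRNA, 2.69 CPM on average, was near the 2.12 CPM of late 2-cell controls. At the early 8-cell stage it lay lower, at 0.783 and 0.803 against 2.17 and 1.61 CPM, without a call (adjusted p = 0.280), and at the late 8-cell stage the groups overlapped, at 2.92 and 5.35 against 3.34 and 6.29 CPM. Elf5 had no count at the late 2-cell and 4-cell stages, none in early 8-cell controls and 1 with siRNA there. By the late 8-cell stage it had 2 and 0 counts in controls and 7 and 10 counts with siRNA (1.86 and 0.408 CPM), a ratio of 11.3 (counting interval 2.69 to 101) with no test. Elf5 moved there beside the cumulus and granulosa markers, whose part was not tested.

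Hand1, a basic helix-loop-helix factor of giant cells, was lower at the early 8-cell stage, where its controls peaked. It read 67.2 and 38.9 CPM with siRNA against 165 and 162, a fall of 1.62 ± 0.32 (adjusted p = 0.00230). At the 4-cell stage it read 48.3 and 37.2 against 71.4 and 40.2 CPM, and at the late 8-cell stage 41.9 and 47.3 against 47.7 and 39.1 CPM, with the groups overlapping at both (adjusted p = 0.442 and 0.948). Hand1 with siRNA thus lay between 37.2 and 67.2 CPM over the 3 later stages, where controls ran from 39.1 to 165 CPM. The siRNA effect differed between the late and early 8-cell stages by 1.66 ± 0.45 on the log2 scale (adjusted p = 0.0356), the 1 factor called in that comparison, where 6.63% of all genes were called (3.01% higher and 3.62% lower). That call was lost without any 1 of 7 of the 8 libraries involved (adjusted p 0.0611 to 0.148). It was kept without siRNA early 8-cell replicate 1.

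Esx1, from the X chromosome, was higher with siRNA at the 3 later stages. It read 112 and 117 CPM with siRNA against 7.54 and 4.90 CPM in 4-cell controls, and 68.6 and 111 against 9.15 and 2.69 CPM at the early 8-cell stage. Late 8-cell libraries held 6.37 and 14.7 against 1.13 and 0.552 CPM. Every siRNA library lay above both controls, and the log2 fold changes were 4.22 ± 0.55 (adjusted p = 0.000148), 3.93 ± 0.55 (adjusted p = 0.000129) and 3.70 ± 0.59 (adjusted p = 0.000213). In 4-cell embryos with siRNA Esx1 thus had 73.2 FPKM, the highest length-corrected level of the 10 factors in that group, ahead of Hand1 at 22.9 and Tfap2c at 14.4. In late 2-cell embryos Esx1 had 12 and 10.3 against 7.28 and 3.34 CPM, without a call (1.04 ± 0.52, adjusted p = 1.0). Xist, the X-linked RNA that coats an inactive X chromosome, read 72.8 and 0.367 CPM in 4-cell controls, of which replicate 2 stood apart, and 87.3 and 73.4 CPM with siRNA. Early 8-cell libraries held 97.8 and 121 CPM of Xist in controls and 92.5 and 80.9 CPM with siRNA, and late 8-cell libraries 276 and 140 against 69.8 and 53.3 CPM. Xist was not called between siRNA and control at any stage. Without control 4-cell replicate 2 the 4-cell log2 fold change of Esx1 was 3.93, and the call was kept in all 12 alternatives (highest adjusted p = 0.0172). Esx1 with siRNA was lowest at the late 8-cell stage among the 3, as were its controls. The difference in the siRNA effect between the 8-cell stages was not called (-0.23 ± 0.81, adjusted p = 0.937).

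**Figure D2:**
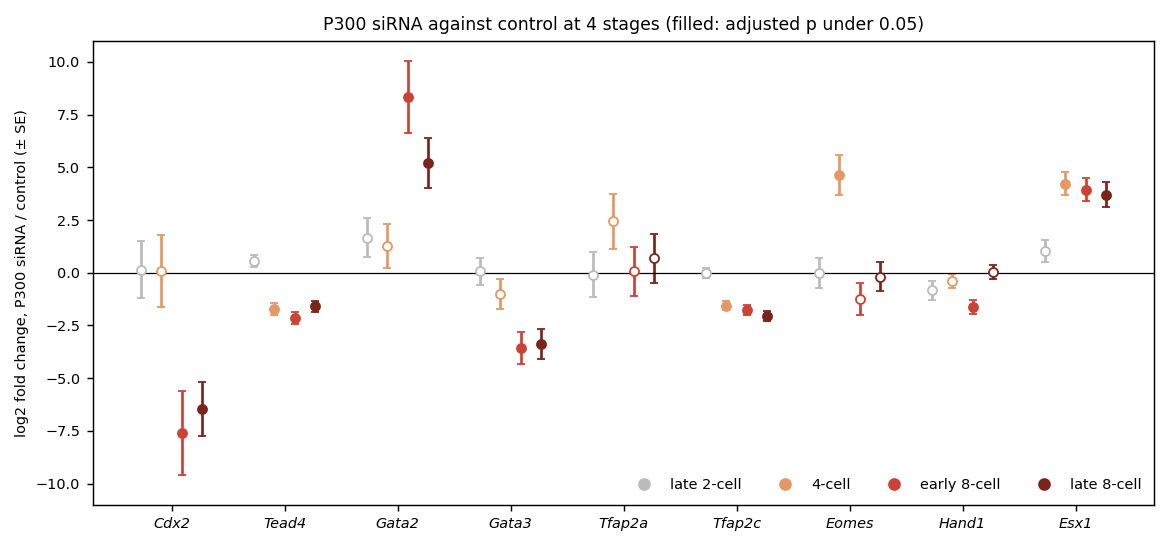
The points give the log2 fold change of P300 siRNA over control with its SE for the 9 tested factors at 4 stages, filled where the adjusted p was under 0.05. The points of Cdx2 and Gata2 at the early 8-cell stage come from groups with 0 counts and depend on the prior count of the fit, so only their direction and bounds, at least 12.1-fold lower and at least 21.1-fold higher, are read.

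The I1394G and NaCr groups of the late 8-cell stage were compared with the siRNA group, with controls and with each other. These comparisons share libraries, and each is given by its own values. Against siRNA, 2 of the 9 factors rose with I1394G and none fell, where 10.8% of all genes were called (6.19% higher and 4.58% lower). With NaCr 3 rose and 1 fell, beside 15.3% of all genes (8.77% higher and 6.57% lower). Against controls 1 factor was called higher with I1394G (3.17% of all genes, 1.99% higher and 1.18% lower) and none with NaCr (1.57%, 1.07% higher and 0.50% lower). For NaCr against controls 5 factors had an unadjusted p under 0.05, DESeq2 called 0, and limma on log2 FPKM called 1 or 0 depending on the pseudocount.

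Tfap2c and Tead4, lower with siRNA, were called higher than siRNA in both groups. Tfap2c read 90.8 and 94.2 CPM with I1394G and 105 and 114 CPM with NaCr, all above the 26.8 and 36.0 CPM of siRNA and below the 134 and 130 CPM of controls. It rose over siRNA by 1.54 ± 0.23 (adjusted p = 0.000746) and 1.79 ± 0.23 (adjusted p = 0.000137), to 70.3% and 83.2% of the control mean. Against controls its log2 difference was -0.51 with I1394G (interval -0.97 to -0.05, adjusted p = 0.238, and 0.0114 when only those libraries were fitted) and -0.27 with NaCr (interval -0.72 to 0.19). Tead4 read 82.8 in both I1394G libraries and 94.3 and 106 CPM with NaCr, and rose by 1.20 ± 0.27 (adjusted p = 0.0102) and 1.47 ± 0.28 (adjusted p = 0.00186), to 75.7% and 91.4%. The NaCr libraries overlapped the Tead4 controls, with a log2 difference of -0.13 (interval -0.69 to 0.43), and with I1394G the difference was -0.40 (interval -0.96 to 0.16). The Tead4 call with I1394G was lost without the shallow siRNA replicate 1 (adjusted p = 0.10) or without either I1394G library (0.0648 and 0.0647). Limma on log2 FPKM with pseudocounts of 1 and 0.1 lost it as well (adjusted p = 0.318 and 0.374). The NaCr call of Tead4 was also lost in those limma fits (0.193 and 0.235). Both Tead4 calls were kept by limma without the mismatched FPKM column of control early 8-cell replicate 2.

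Cdx2 and Gata3 lay between siRNA and control. Cdx2 read 1.28 and 1.89 CPM with I1394G and 5.28 and 3.36 CPM with NaCr, above siRNA and below controls in every library. Its difference from siRNA was called for NaCr (4.68 ± 1.25, adjusted p = 0.0178) and not for I1394G (3.23 ± 1.23, adjusted p = 0.10), and the means were 29.2% and 10.7% of control. For I1394G it was called with no filter on low counts (adjusted p = 0.0211) and with limma without the mismatched FPKM column (0.0326). Leaving out siRNA replicate 1 (adjusted p = 0.0855), siRNA replicate 2 (0.0833) or NaCr replicate 1 (0.0789) ended the NaCr call. Gata3 read 18.1 and 26.8 CPM with I1394G and 24.5 and 16.2 CPM with NaCr, at 27.3% and 24.7% of control, above siRNA in every library but without a call (adjusted p = 0.159 and 0.182). With no filter on low counts Gata3 was called higher in both (adjusted p = 0.00356 and 0.00856).
Against controls, the log2 difference of Gata3 was -1.87 (interval -3.25 to -0.49, adjusted p = 0.139) with I1394G and -2.01 (interval -3.40 to -0.61, adjusted p = 0.151) with NaCr. Cdx2 differed from controls by -3.21 with I1394G (interval -5.29 to -1.14, adjusted p = 0.0921) and by -1.77 with NaCr (interval -3.73 to 0.20, adjusted p = 0.439). All 4 differences from controls were called when only the 2 groups compared were fitted, with adjusted p from 5.5e-05 to 0.00502.

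The factors that were higher with siRNA stood between siRNA and control. Esx1 read 5.97 and 5.50 CPM with I1394G and 1.91 and 3.36 CPM with NaCr. It fell below siRNA with NaCr (-2.11 ± 0.55, adjusted p = 0.0147), a call lost without siRNA replicate 2 (adjusted p = 0.241), NaCr replicate 1 (0.156) or NaCr replicate 2 (0.0506). With I1394G it was not called against siRNA (-0.95 ± 0.50, adjusted p = 0.236) and was higher than in controls (2.75 ± 0.58, adjusted p = 0.0138), a call lost without any 1 of the 4 libraries (adjusted p 0.0571 to 0.216). Gata2 read 0.766 and 0.572 CPM with I1394G and 1.25 and 0.497 CPM with NaCr, below siRNA and above controls in every library, with no call by edgeR against siRNA (adjusted p = 0.133 and 0.201) or against the 3 control counts (ratios 8.30, interval 2.56 to 42.6, and 12.4, interval 3.76 to 64.7). With limma on log2 FPKM Gata2 was called lower than siRNA for both I1394G (adjusted p 0.0221 to 0.0357) and NaCr (0.0208 to 0.0284), and the fit to the compared libraries alone called it higher than controls for I1394G (0.0285). Elf5 had 6 and 0 counts with I1394G and none with NaCr.

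Eomes did not follow the other factors. It read 1.68 and 1.58 CPM with I1394G and 1.12 and 1.62 CPM with NaCr, below both the siRNA and the control libraries, without a call by edgeR in the fit to all libraries (adjusted p from 0.133 to 0.260 over the 4 comparisons). With limma on log2 FPKM Eomes was called lower with NaCr than with siRNA (adjusted p 0.0308 to 0.0428). Fitted to the compared libraries alone, it was called lower than controls with I1394G (adjusted p = 0.0200) and with NaCr (0.0268). Hand1 lay at 59.5 and 63.1 CPM with I1394G and 48.3 and 89.9 CPM with NaCr, above siRNA and controls in each library and without a call (adjusted p from 0.194 to 0.463), except against controls with I1394G when those libraries alone were fitted (0.0150). Tfap2a read 0.102 to 0.352 CPM in these 4 libraries, without a call.

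Between I1394G and NaCr no factor was called by edgeR's quasi-likelihood test, DESeq2 or limma, and no gene of the 16603 was called by edgeR (0% of all genes), although 323 genes and 1 of the 9 factors had an unadjusted p under 0.05. The factor was Esx1, higher with I1394G by 1.16 on the log2 scale (interval 0.02 to 2.30). The intervals of I1394G minus NaCr ran from -3.44 to 0.54 for Cdx2, from -1.22 to 1.49 for Gata3, from -0.83 to 0.29 for Tead4 and from -0.70 to 0.22 for Tfap2c. Differences of up to these sizes could not be told from none.

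**Figure D3:**
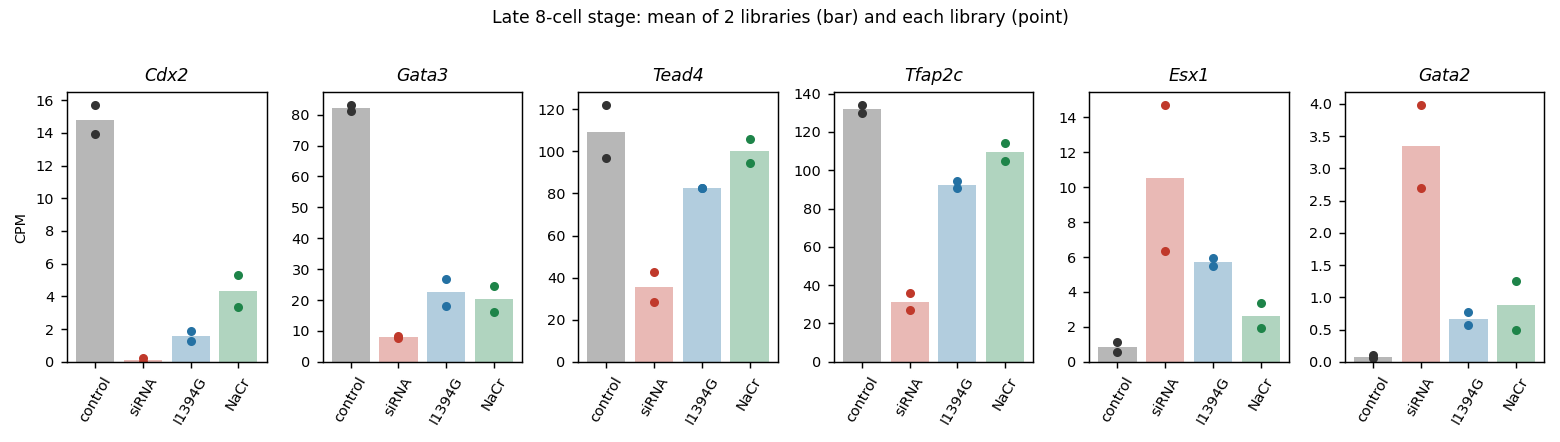
CPM at the late 8-cell stage is plotted for 6 factors, with bars for the mean of 2 libraries and points for each library in control, P300 siRNA, I1394G and NaCr groups, each panel on its own linear axis from 0. Tfap2c with NaCr reaches 83.2% of the control mean and Cdx2 29.2%, while Esx1 and Gata2 are highest with siRNA.

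Other genes of the same pathway and tissue were read from lists chosen with earlier results of these data known. Of 39 tested epithelial and effector genes of the trophectoderm, 15 fell and 2 rose with siRNA at the early 8-cell stage, and 14 fell and 5 rose at the late 8-cell stage (medians -0.62 and -0.83, beside 0.04 and 0.06 over all genes). Over all genes 8.30% were called lower and 8.21% higher at the early 8-cell stage, and 14.3% lower and 13.6% higher at the late 8-cell stage, and the counts of all lists below are read against these shares. At the early 8-cell stage F11r, a tight junction protein, fell by 2.02 ± 0.21 (adjusted p = 1.3e-05) and Aqp9, a water and glycerol channel, by 1.35 ± 0.17 (adjusted p = 6.3e-05), while the claudin Cldn6 rose by 2.25 ± 0.23 (adjusted p = 1.3e-05). In late 8-cell embryos Aqp3, a channel of the blastocyst epithelium, fell from a mean of 232 to 31.7 CPM (-2.87 ± 0.33, adjusted p = 1.3e-05), and Lgals3, a galectin, rose from 7.24 to 81.1 CPM (3.49 ± 0.49, adjusted p = 7.1e-05). Aqp3 then stood at 158 CPM with I1394G and 209 CPM with NaCr, both called higher than siRNA (adjusted p = 0.000590 and 0.000115).

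Of 25 other tested trophoblast regulators 10 fell and 1 rose at the early 8-cell stage, and 6 fell and 2 rose at the late 8-cell stage, beside 8.30% lower and 8.21% higher and then 14.3% lower and 13.6% higher over all genes. Klf5, a Krüppel-like factor needed in early trophectoderm, read 27.7 and 23.4 CPM with siRNA against 104 and 130 CPM at the early 8-cell stage (-2.20 ± 0.24, adjusted p = 1.6e-05), and 23.6 and 23.7 against 135 and 124 CPM at the late 8-cell stage (-2.45 ± 0.24, adjusted p = 4.5e-06). Sfmbt2, an imprinted Polycomb gene of the trophoblast, rose as Esx1 did, from 3.72 and 4.81 CPM in 4-cell controls to 78.2 and 57.0 CPM with siRNA (3.97 ± 0.40, adjusted p = 1.5e-05). Of 26 Hippo and Notch genes 9 fell and 0 rose at the early 8-cell stage, 13 having an unadjusted p under 0.05, and 4 fell and 5 rose at the late 8-cell stage. The late 8-cell counts of this list lay near the 14.3% lower and 13.6% higher of all genes. Among them Wwtr1, the YAP1 relative that partners TEAD4, fell at the 4-cell (-1.28 ± 0.24, adjusted p = 0.00251), early 8-cell (-1.72 ± 0.25, adjusted p = 0.000162) and late 8-cell stages (-1.54 ± 0.25, adjusted p = 0.000228), and the Notch ligand gene Jag1 rose from 1.23 to 12.8 CPM at the late 8-cell stage (adjusted p = 0.000211).

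Among the listed inner cell mass factors, more fell than rose with siRNA at both 8-cell stages. Of 18 tested, 9 fell and 1 rose at each 8-cell stage, with medians of -0.98 and -1.23, where 8.30% and 14.3% of all genes were called lower. Nr5a2, an orphan nuclear receptor, fell by 1.72 ± 0.22 at the early 8-cell stage (adjusted p = 6.2e-05), and Tfcp2l1, a pluripotency factor, fell by 3.30 ± 0.42 at the late 8-cell stage (adjusted p = 3.5e-05). The riser was Fgf4, a growth factor, at the early 8-cell stage (1.65 ± 0.46, adjusted p = 0.0198). In late 8-cell embryos it was the endoderm factor Sox17, with no count in controls (at least 15.7-fold higher, adjusted p = 0.0142). With NaCr 10 of the 18 rose over siRNA and none fell, where 8.77% of all genes were called higher and 6.57% lower, and with I1394G 9 rose and none fell (6.19% and 4.58%), 12 having an unadjusted p under 0.05 in each comparison.

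**Figure D4:**
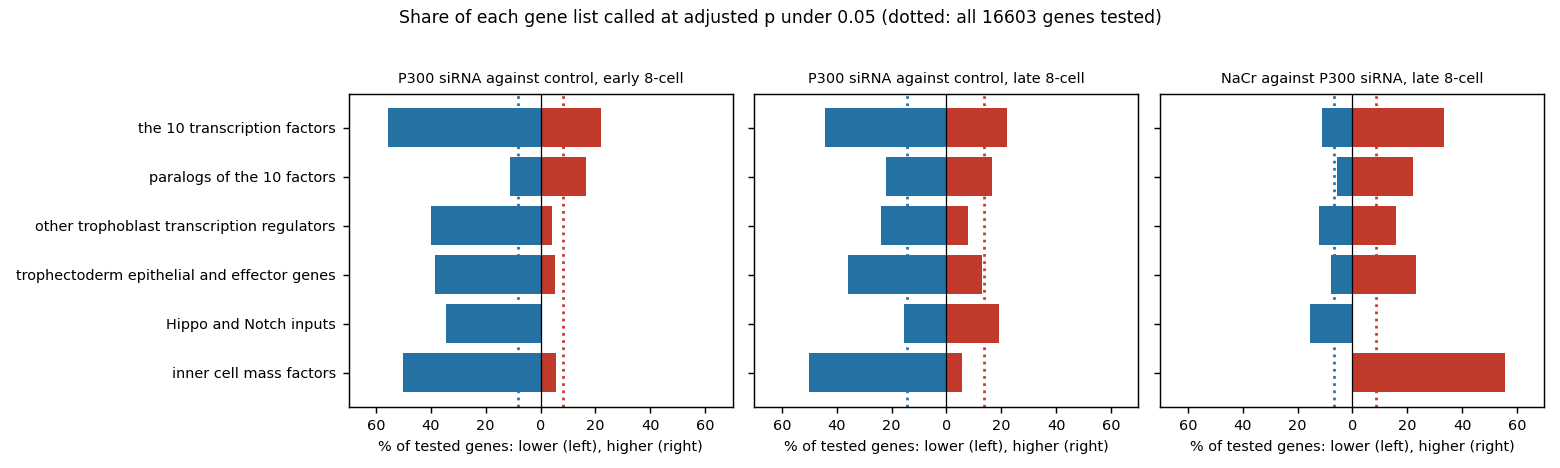
Bars give the percent of tested genes of each list called lower (left, blue) or higher (right, red) in 3 comparisons, and dotted lines give the same over all 16603 genes tested. For the early 8-cell stage the 10 factors, of which 9 were tested, show 5 lower and 2 higher, beside 8.30% lower and 8.21% higher over all genes.

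Among paralogs of the 10, 18 were tested, of which 3 rose and 2 fell with siRNA at the early 8-cell stage and 3 rose and 4 fell at the late 8-cell stage, beside 8.21% higher and 8.30% lower and then 13.6% higher and 14.3% lower over all genes. Elf3, an epithelial relative of Elf5, turned direction between these stages. It read 8.79 and 11.2 CPM with siRNA against 1.28 and 0.359 CPM in early 8-cell controls, and 17.3 and 25.3 against 160 and 198 CPM in late 8-cell controls. The siRNA effect differed between the stages by -6.67 ± 0.63 on the log2 scale (adjusted p = 5.6e-05). With I1394G Elf3 read 54.3 and 73.3 CPM and with NaCr 108 and 79.8 CPM, both called higher than siRNA (adjusted p = 0.0121 and 0.00122). Tbx3, a T-box relative of Eomes, fell at the 4-cell (-3.15 ± 0.48, adjusted p = 0.000468) and early 8-cell stages (-4.16 ± 0.50, adjusted p = 3.7e-05). Rhox6, an X-linked homeobox gene like Esx1, had no count in 4-cell controls and 12.8 and 10.7 CPM with siRNA, at least 123-fold higher (adjusted p = 5.3e-05). At the late 8-cell stage Rhox6 read 14.6 and 12.7 CPM with siRNA, 18 and 21.5 CPM with I1394G and 4.69 and 5.47 CPM with NaCr, against 0.924 and 1.05 CPM in controls.

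The genes whose course over the 20 libraries was most like that of 3 of the factors were ranked by Pearson correlation of log2 CPM among 11729 genes. Points share their library and include the stages, so the values are a description. For Tead4 the nearest were Fbxo6 (0.969), Stmn3 (0.968), Calm5 and Slc66a2 (both 0.963) and Gldc (0.955). For Tfap2c they included Iqgap3 (0.961), Eda (0.931), Pabpc4 (0.923) and Kdm2b (0.921). For Cdx2 they were Slc5a11 (0.896), Piwil2 (0.886), Epas1 (0.881), P2rx4 and Cdk1 (both 0.874). Among the factors themselves Tead4 and Hand1 correlated at 0.78 and Cdx2 and Gata3 at 0.76, while the lowest values were -0.83 for Gata3 with Esx1 and -0.80 for Tead4 with Gata2.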

How the data were processed

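Gene expression was measured in 20 RNA-seq libraries of mouse embryos, in 10 groups of 2 taken from the sample titles. The authors deposited raw counts per gene, without normalisation, and an FPKM table of the same 25208 genes. Build mm9 and the tools HISAT2 2.2.1, Cufflinks 2.2, cutadapt 4.1 and bcl2fastq 2.20.0.422 are listed in the submitters' processing notes. Whether counting used strand is not given in the sources used here, and overlapping or antisense genes may share reads. In edgeR 4.0.16 (R 4.3.3) the default low-count filter on the groups left 16603 genes, library sizes were scaled by TMM, and 1 quasi-likelihood model was fitted to all 20 libraries. Contrasts were tested two-sided with Benjamini-Hochberg adjustment over all genes and a call at an adjusted p under 0.05. SE is the log2 fold change over the square root of F. Floors of 3 counts over a group and 95% exact intervals of ratios cover counting error only.

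Library totals were 3202332 to 24785201 counts, where 3 counts equal 0.123 to 0.796 CPM. The fit was tested on simulated data. Replicate libraries correlated at 0.964 to 0.994 and were not copies. Over 45 pairs of groups, same-numbered deviations correlated at -0.10 to 0.43 (median 0.00). Replicate numbers thus did not pair the libraries in general, though 5 pairs passed 0.1. Alternatives were DESeq2 1.42.0 size factors and Wald test, no filter, limma 3.58.1 on log2 FPKM with pseudocounts of 1 and 0.1 (at least 1 FPKM in 2 libraries), only the compared libraries, a replicate block and leaving out each library. FPKM levels leave out the column of control early 8-cell replicate 2, which does not follow its counts.

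The genes named are the 10 factors, Ep300, from each context list up to 2 called genes per direction and comparison by lowest adjusted p, and the 5 genes nearest to Cdx2, Tead4 and Tfap2c with at least 5 CPM in the highest group, of which 1 is not reported here. The factors and lists were chosen with earlier results of these data known. Promoters came from RefSeq (GRCm38.p6), whose build differs from mm9.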

Additional observations from a re-analysis of the deposited data

Results flagged for a closer look

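Hand1 differed between stages by a test of the difference itself, since the siRNA effect at the late minus that at the early 8-cell stage was 1.66 on the log2 scale. Tead4 libraries lay on opposite sides of their controls at different stages. Its mean with siRNA was 25 CPM at the late 2-cell stage, above both controls without a call (adjusted p = 1.0 by edgeR's quasi-likelihood test), and 35.1, 41.3 and 35.6 CPM at the 4-cell, early 8-cell and late 8-cell stages, below both controls each time, and this difference between stages was not tested. Eomes with siRNA was above both controls at the 4-cell stage, at 2.69 CPM on average, and below both at the early 8-cell stage, at 0.793 CPM, and that difference was not tested either.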

How the results depend on the processing

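There were 37 called results of single factors over 13 comparisons. DESeq2 size factors, the DESeq2 Wald test, no filter and the replicate block each kept all 37. Of the 37, 23 were kept without each library in turn and 10 in every alternative run. Fitting only the libraries compared lost 7, limma on FPKM plus 1 lost 15 and reversed 3, limma on FPKM plus 0.1 lost 12 and reversed 3, and limma without the mismatched FPKM column of control early 8-cell replicate 2, an alternative chosen after seeing the data, lost 6 and reversed none, each limma fit holding 36 of the 37. The reversed log2 values, with the pseudocount of 1 and of 0.1, were 0.18 and 0.22 for Hand1 with siRNA at the early 8-cell stage, -0.02 and -0.05 for Hand1 from 4-cell to early 8-cell controls, and 0.69 and 0.74 for Tead4 from early to late 8-cell controls; all 6 used the mismatched column.

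The number of factors called moved as follows, and the cause was not tested. Fitting only the libraries compared gave 1 in place of 0 at the late 2-cell stage, 1 in place of 4 at the 4-cell stage, 7 in place of 1 for I1394G against control, 3 in place of 0 for NaCr against control and 0 in place of 2 for early 8-cell against 4-cell controls. With no filter it was 4 for I1394G against siRNA, 3 and 2 for I1394G and NaCr against control and 4 for early 8-cell against 4-cell controls. With limma and a pseudocount of 1 it was 2 at the 4-cell stage, 1 in place of 7 at the early 8-cell stage, 1 for NaCr against control and 0 for early 8-cell against 4-cell controls, and with 0.1 it was 2 at the early 8-cell stage, 1 for early 8-cell against 4-cell controls and 0 for the difference between the 8-cell stages. Without the mismatched column it was 4 for I1394G against siRNA, 2 and 1 for I1394G and NaCr against control, 0 for early 8-cell against 4-cell controls and 2 for the difference between the 8-cell stages.

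Leaving out 1 library gave 0 to 0 calls at the late 2-cell stage, 4 to 5 at the 4-cell, 6 to 7 at the early 8-cell and 5 to 6 at the late 8-cell stage, 1 to 2 for I1394G and 2 to 3 for NaCr against siRNA, and 0 to 0 for I1394G against control, NaCr against control and I1394G against NaCr. It gave 5 to 6, 0 to 3 and 2 to 2 for the successive control stages and 0 to 1 for the difference between the 8-cell stages. The lone library left in a group is then assumed to vary like the other groups. With the replicate block the counts were 0, 4, 7 and 6 at the 4 stages, and Gata3 was added between the 8-cell controls (adjusted p = 0.0385, 5 calls in place of 4). DESeq2 size factors moved the median of all genes by 0.14 for siRNA at the late 8-cell stage, by -0.24 from late 2-cell to 4-cell controls and by 0.11 for the difference between the 8-cell stages. They moved the higher share of all calls from 57.5% to 45.3% for I1394G against siRNA and from 45.4% to 60.9% for that difference. Over all genes, the calls in the fit reported and their range over the alternatives other than leaving out a library were 1 (1 to 508) at the late 2-cell stage, 2494 (59 to 3218) at the 4-cell stage and 2741 (203 to 3513) at the early 8-cell stage. They were 1789 (1219 to 2896) and 2546 (2314 to 4010) for I1394G and NaCr against siRNA, 527 (234 to 4031) and 261 (91 to 2263) against control, 187 (70 to 693) and 4346 (2460 to 4957) for the later control steps and 1100 (530 to 1948) for the difference between the 8-cell stages. Leaving out 1 library gave 1406 to 3168 calls at the 4-cell stage, 1335 to 2415 at the early and 2225 to 3462 in place of 4645 at the late 8-cell stage. It gave 450 to 1973 and 920 to 2319 for I1394G and NaCr against siRNA, 55 to 163 and 12 to 113 against control, 109 to 934 and 2028 to 3722 for the later control steps and 212 to 1424 for the difference.

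With 2 libraries a group, Gata2, Tfap2a, Elf5 and early Cdx2 rest on few counts, and a missing call there does not show equal levels.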
